A study of Mus musculus with 12 samples.

Results

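The Rab GTPase genes are described here through the poly(A) sites (PASs) at which their transcripts end. The members were the entries of the deposited PAS list whose gene symbol is Rab followed by a number and at most 1 small letter. This rule took 171 entries in 56 genes, of 56204 entries in 16627 genes in all. It used the gene symbol alone and no read number. *Rab7l1*, *Rabl2*, *Rabl3* and *Rabl5*, whose symbols have another form, are listed with 3, 9, 3 and 2 PASs and were not counted as members.

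The list comes from 3′READS+ sequencing of the 3′ ends of transcripts in hippocampal mini-slices of C57BL/6 mice, given as 3 months old in the labels and as 2 to 3 months old in the series' text. Chemical LTP, a lasting strengthening of synapses, was induced with forskolin followed by forskolin with raised KCl and Ca2+, and control slices of the same animals received the DMSO vehicle. Collection followed 1 hr or 3 hr after the treatment and gave 12 libraries in 4 groups of 3. After clustering of the samples, the paper left 1 of the 3 hr control libraries out of its APA analysis as an outlier. The dentate gyrus had been trimmed from all slices, and each library holds the mixed cells of the slices that remained.

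The columns of read numbers are not named after the samples, and their reads were not analysed here. The values below are therefore positions and numbers of sites in the list made for all 12 libraries together. They do not say in which libraries or groups a site was seen. They hold no level of any *Rab* gene, no difference between LTP and control slices and no replicate error, and a site with few reads counts as much as any other. The depth behind each site was not computed, and the tissue label was not checked against marker levels, since both would use the unnamed columns. All 15 marker genes of neurons, astrocytes, oligodendrocytes, microglia and dentate granule cells chosen for that check had entries in the list, which says nothing of their levels.

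Rab proteins are small GTPases that switch between a GTP-bound form on membranes and a GDP-bound form in the cytosol. Each directs a step of vesicle traffic by recruiting effectors to its own membrane compartment. In neurons they serve the release of synaptic vesicles and the delivery and retrieval of receptors at the synapse. Alternative cleavage and polyadenylation (APA) in the 3′UTR leaves the protein unchanged but alters the length of the 3′UTR, whereas cleavage at an intronic PAS yields a transcript with a different 3′ end and, often, a different coding sequence.

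Of the 56 symbols, 55 matched a RefSeq gene symbol, and all 55 genes were protein-coding and lay on the chromosome that the list gives. The remaining symbol, *Rab1*, could not be matched to a single RefSeq gene by symbol or synonym, and no annotation was taken for it. The genes were spread over 18 chromosomes, with 4 of them on the X chromosome. No *Rab* PAS was listed under a second gene, whereas 656 entries of the whole list stood under several genes. The submitters' processing notes name the mouse build mm9, and positions are given below as the list has them.

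The 171 entries carried 4 of the 9 region labels of the list. The label exon3, taken from its name to mean the 3′-most exon, was given to 116 entries, or 67.8%, against 55.7% over the whole list. Intronic PASs made up 32 entries, or 18.7%, against 27.0% over the whole list, and all of them were labelled intron_Comp, taken to mean a composite terminal exon. The label intron_Skip, taken to mean a skipped terminal exon, covered 3.16% of the whole list and 0 *Rab* entries. A further 12 entries (7.02%, against 6.06%) were labelled exon3ext, for sequence beyond the annotated 3′-most exon. The label UA, taken to mean upstream antisense, was given to 11 entries (6.43%, against 7.11%). These shares are descriptions of the list, and no test was made of the difference between *Rab* genes and other genes. The list holds more PASs than the paper counts in its own set. The paper also places a smaller share of its PASs in introns. The shares and numbers of sites given here therefore do not describe the paper's set.

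Each *Rab* gene was listed with 1 to 13 PASs, with a median of 2 for the *Rab* genes and of 2 for all genes. A single PAS was listed for 23 genes (41.1%, against 32.9% of all genes), and 2 or more for 33 genes (58.9%, against 67.1%). Counting exon3 sites alone gave the opposite order. Of the 53 *Rab* genes with an exon3 PAS, 30 (56.6%) had 2 or more, the number needed for 3′UTR APA, against 49.5% of the 15075 genes of the list with an exon3 PAS. The 3 genes whose entries include no exon3 label (5.4%, against 9.3% of all genes) were *Rab7*, *Rab19* and *Rab20*.

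**Figure D1:**
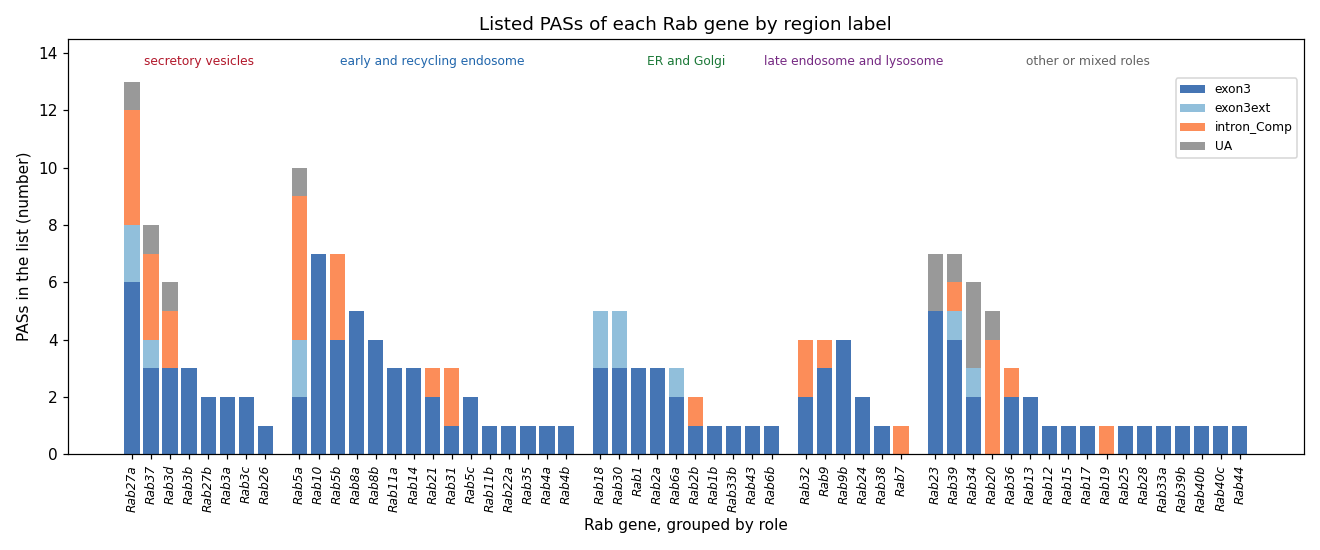
Number of listed PASs (vertical axis) of each of the 56 *Rab* genes (horizontal axis), stacked by region label and grouped by role. *Rab27a* stands highest with 13 PASs, followed by *Rab5a* with 10 and *Rab37* with 8, while 23 genes have a single PAS.

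Among the 8 *Rab* genes of secretory vesicles, 7 had 2 or more exon3 PASs, and the group held 37 entries. The Rab3 proteins sit on synaptic and other secretory vesicles and bind RIM and rabphilin before fusion. The 4 *Rab3* genes differed widely in the distance between their outermost exon3 PASs, the exon3 span. *Rab3a*, which encodes the main Rab3 of synaptic vesicles, had exon3 PASs at 73282503 and 73282529 on the plus strand of chromosome 8, only 26 nt apart. This was the shortest span among the *Rab* genes and lies just above the 24 nt within which the authors merged sites. *Rab3c* had the longest span, with PASs at 110851676 and 110844395 on the minus strand of chromosome 13, 7281 nt apart. The exon3 PASs of *Rab3b* lay at 108613696, 108613793 and 108615916 on the plus strand of chromosome 4 and spanned 2220 nt. Those of *Rab3d* spanned 1589 nt. The 4 paralogs thus covered both extremes of the exon3 spans among the *Rab* genes.

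*Rab27a* and *Rab27b* encode paired regulators of secretory granule docking and exosome release, and their PASs were listed in different patterns. *Rab27a* had the most PASs of any *Rab* gene, 13 in all, of which 6 were exon3, 4 intronic, 2 exon3ext and 1 UA. *Rab27b* had 2 PASs, both exon3, which lay 4522 nt apart. This was the second-longest span among the *Rab* genes. *Rab37*, which encodes a Rab of secretory granules, had 8 PASs with 3 in exon3 over 1315 nt. *Rab26*, which encodes a Rab linked to synaptic vesicles and their turnover, had a single exon3 PAS.

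The 15 *Rab* genes assigned to the early and recycling endosome group held 52 entries. Of these genes, 9 had 2 or more exon3 PASs, with a median span of 1463 nt. The group is a chosen list and does not hold every Rab of endosomes. *Rab20*, described below as a Rab of endosomes and phagosomes, was counted under other or mixed roles. *Rab8a* and *Rab8b* encode close paralogs that direct vesicles from the Golgi and recycling endosome to the plasma membrane. Their exon3 spans were 3643 nt, over 5 PASs, and 3600 nt, over 4 PASs. *Rab10*, which encodes a related Rab of membrane delivery in dendrites and axons, had 7 exon3 PASs, the most of any *Rab* gene. They lay over 2274 nt, and 6 of them came before the last gap of 1483 nt. *Rab11a*, a Rab of the recycling endosome that carries AMPA receptors back to spines, had 3 exon3 PASs over 1463 nt. Its paralog *Rab11b* had a single exon3 PAS.

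The *Rab5* genes encode the Rabs of early endosome fusion, and the 3 paralogs were listed in 3 patterns. *Rab5a* had 10 PASs, of which the 2 in exon3 were 63 nt apart, with 5 intronic, 2 exon3ext and 1 UA PAS besides. *Rab5b* had 7 PASs, with 4 in exon3 over 2089 nt and 3 intronic. *Rab5c* had 2 PASs, both in exon3 and 568 nt apart. *Rab14*, a Rab between the Golgi and endosomes, had 3 exon3 PASs over 1308 nt, and *Rab21*, a Rab of integrin endocytosis, had 2 exon3 PASs that lay 307 nt apart. A single exon3 PAS and no other entry was listed for *Rab4a*, *Rab4b*, *Rab22a* and *Rab35*, which act in early and recycling endosomes. *Rab31*, a Rab of traffic from the Golgi to endosomes, had 1 exon3 PAS and 2 intronic PASs.

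The 10 *Rab* genes of the ER and Golgi held 25 entries, and 5 of them had 2 or more exon3 PASs, with spans of 72 to 1038 nt and a median of 588 nt. *Rab1* and *Rab2a* encode Rabs of transport between the ER and the Golgi. Each had 3 exon3 PASs, over 990 nt in *Rab1* and over 1038 nt in *Rab2a*. Their paralogs had 1 exon3 PAS each, which was the whole entry of *Rab1b*, while *Rab2b* also had 1 intronic PAS. *Rab6a*, which encodes a Rab of traffic within and from the Golgi, had 2 exon3 PASs 72 nt apart and 1 exon3ext PAS, and its paralog *Rab6b*, the form enriched in brain, had 1 exon3 PAS. *Rab18*, a Rab of the ER and lipid droplets, and *Rab30*, a Rab of the Golgi, had 3 exon3 and 2 exon3ext PASs each. *Rab33b*, a Rab of the Golgi and of autophagy, and *Rab43* had a single exon3 PAS.

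Of the 6 *Rab* genes of late endosomes, lysosomes and related organelles, 4 had 2 or more exon3 PASs, with spans of 134 to 1592 nt. *Rab7*, which encodes the main Rab of the late endosome, was listed with a single PAS. That PAS lay at 87952668 on the minus strand of chromosome 6 and was labelled intron_Comp. Why no exon3 PAS was listed for *Rab7* was not tested. *Rab9* and *Rab9b* encode Rabs of return traffic from late endosomes to the Golgi. Their exon3 PASs spanned 332 nt over 3 sites and 1592 nt over 4 sites. *Rab24*, which is linked to autophagy, had 2 exon3 PASs 134 nt apart, and *Rab32*, a Rab of lysosome-related organelles, had 2 that lay 229 nt apart. Its relative *Rab38* had a single exon3 PAS.

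The remaining 17 genes, with other or mixed roles, held 41 entries, and 11 of them had a single PAS. *Rab23*, which restrains Hedgehog signalling, had 5 exon3 PASs over 1853 nt. *Rab36* had 2 that lay 1821 nt apart, *Rab39* had 4 over 553 nt, *Rab13*, a Rab of cell junctions, had 2 that lay 416 nt apart and *Rab34*, a Rab of cilium formation, had 2 that lay 35 nt apart. The genes with a single exon3 PAS and no other entry were *Rab12*, *Rab15*, *Rab17*, *Rab25*, *Rab28*, *Rab33a*, *Rab39b*, *Rab40b*, *Rab40c* and *Rab44*.

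Over the 30 *Rab* genes with 2 or more exon3 PASs, the median span was 1173 nt, with quartiles at 313 and 1845 nt. Over the 7465 such genes of the list whose sites share a chromosome, the median was 817 nt, with quartiles at 258 and 1770 nt. Spans over 2000 nt were found in 7 *Rab* genes (23.3%, against 21.0% of the genes in the list), namely *Rab3c*, *Rab27b*, *Rab8a*, *Rab8b*, *Rab10*, *Rab3b* and *Rab5b*. All 7 belong to the secretory vesicle and the early and recycling endosome groups, which held 7 and 9 of the 30 genes with a span. This holds for exon3 PASs alone. With exon3ext PASs added, the distance also passed 2000 nt in *Rab30* (8009 nt) and *Rab18* (4477 nt), of the ER and Golgi group. It did so too in *Rab27a* (6045 nt), of the secretory vesicle group. Whether long spans go with the role of a gene was not tested. Between adjacent exon3 PASs, the median distance was 262 nt over 63 pairs in the *Rab* genes and 259 nt over the whole list.

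**Figure D2:**
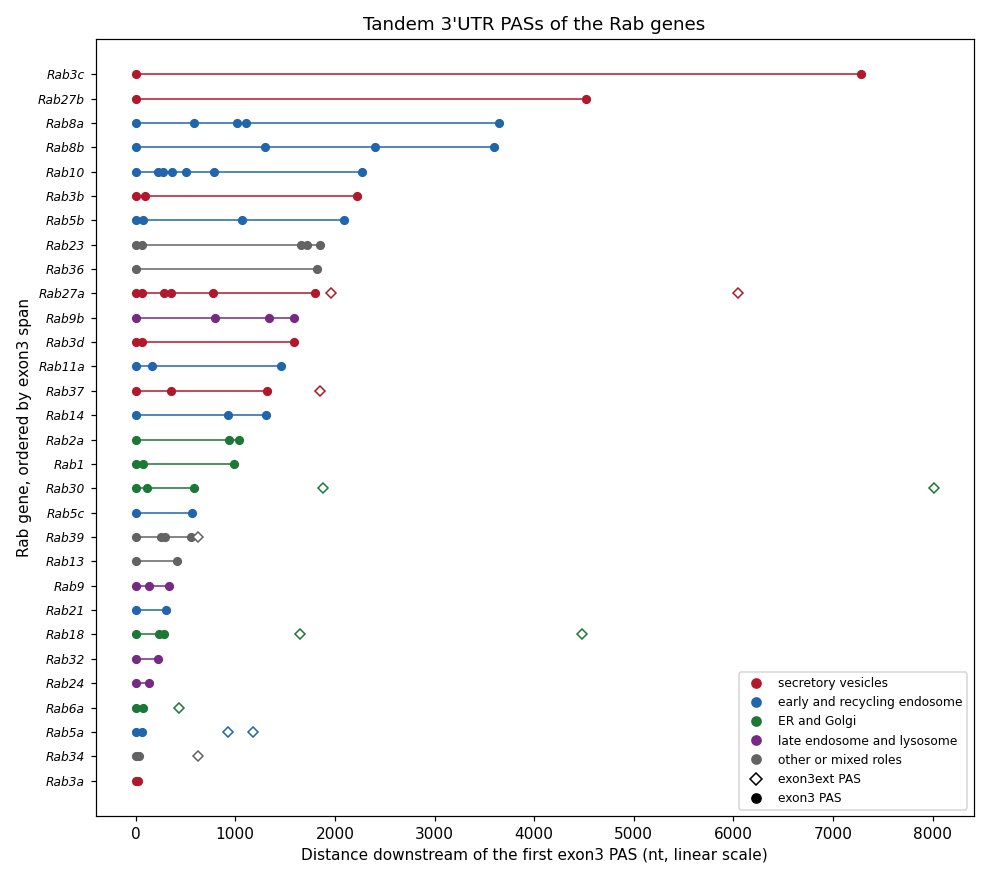
Distance in nt of each exon3 PAS (filled circles) and exon3ext PAS (open diamonds) downstream of the first exon3 PAS, for the 30 *Rab* genes with 2 or more exon3 PASs (vertical axis), coloured by role. The exon3 spans run from 26 nt in *Rab3a* to 7281 nt in *Rab3c*, and the farthest exon3ext PAS is that of *Rab30* at 8009 nt.

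Lengths of annotated 3′UTRs, which do not depend on positions in a build, were set beside these spans. In GENCODE M21, the longest 3′UTR of a protein-coding transcript exceeded the exon3 span in all 29 of the 30 genes that had an annotated length, *Rab1* being the one without. In *Rab3c* it was 7628 nt, and in *Rab3a* 589 nt. Its median was 2200 nt in these 29 genes and 1178 nt in the 23 genes with exactly 1 exon3 PAS. A long annotated 3′UTR did not always go with several listed PASs, since *Rab22a* had a single exon3 PAS and a longest annotated 3′UTR of 6224 nt. The exon3 PASs are taken to lie in the 3′-most exon, and the span starts only at the first of them. That spans were shorter than the annotated 3′UTR was thus largely fixed by the label.

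PASs labelled exon3ext were listed for 8 *Rab* genes (14.3%, against 12.2% of all genes). By the meaning of the label, all 12 followed the gene's last exon3 PAS, at 72 to 7421 nt with a median of 992 nt. The farthest were those of *Rab30*, 1288 and 7421 nt beyond the last exon3 PAS, *Rab27a*, at 165 and 4247 nt, and *Rab18*, at 1372 and 4196 nt. *Rab5a* had exon3ext PASs at 865 and 1119 nt, *Rab34* at 592 nt, *Rab37* at 536 nt, *Rab6a* at 368 nt and *Rab39* at 72 nt. In 5 of the 8 genes, the distance from the first exon3 PAS to the last exon3ext PAS was shorter than the longest 3′UTR of the GENCODE annotation. In *Rab30* these lengths were 8009 and 8596 nt, and in *Rab18* they were 4477 and 5774 nt. The distance was longer than the annotated 3′UTR in *Rab27a* (6045 against 2173 nt), *Rab37* (1851 against 1496 nt) and *Rab34* (627 against 352 nt). These distances leave out the stretch from the stop codon to the first exon3 PAS. A shorter distance therefore does not place the last exon3ext PAS within the annotated 3′UTR. Whether the annotation behind the labels of the list held the longer 3′UTRs was not tested.

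An intronic PAS was listed for 15 *Rab* genes (26.8%, against 33.5% of all genes), and 12 of these also had an exon3 PAS. By the meaning of the labels, all 26 intronic PASs of the 12 genes lay upstream of the first exon3 PAS. Their distances from it were 1309 to 54977 nt, with a median of 11076 nt. *Rab5a* had the most, 5, spread over 20390 nt, and the last of them was the intronic PAS closest to an exon3 PAS in any *Rab* gene, 1309 nt upstream. The 4 of *Rab27a* were spread over 38824 nt, with the first 48954 nt and the last 10130 nt upstream of exon3. The 3 of *Rab37* were spread over 43235 nt, and its first, 54977 nt upstream, was the farthest. The 2 of *Rab31* lay 50201 and 48776 nt upstream, 1425 nt apart.

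The 3 intronic PASs of *Rab5b* lay 4947, 3730 and 2965 nt upstream of exon3, the 2 of *Rab3d* 4822 and 2557 nt, and the 2 of *Rab32* 6850 and 4982 nt. A single intronic PAS was listed 24577 nt upstream in *Rab21*, 19010 nt in *Rab9*, 5634 nt in *Rab39*, 4127 nt in *Rab36* and 3055 nt in *Rab2b*. The 6 remaining intronic PASs belong to the genes whose entries include no exon3 label. *Rab20*, a Rab of endosomes and phagosomes, had 4 of them within 2014 nt, and *Rab19* and *Rab7* had 1 each. The median RefSeq gene length was 22617 nt in the 15 genes with such a site and 23262 nt in the 40 others with an annotated length. The ranges of gene length in the groups overlapped, from 9958 to 121027 nt and from 2758 to 226810 nt. No test was made of this difference.

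**Figure D3:**
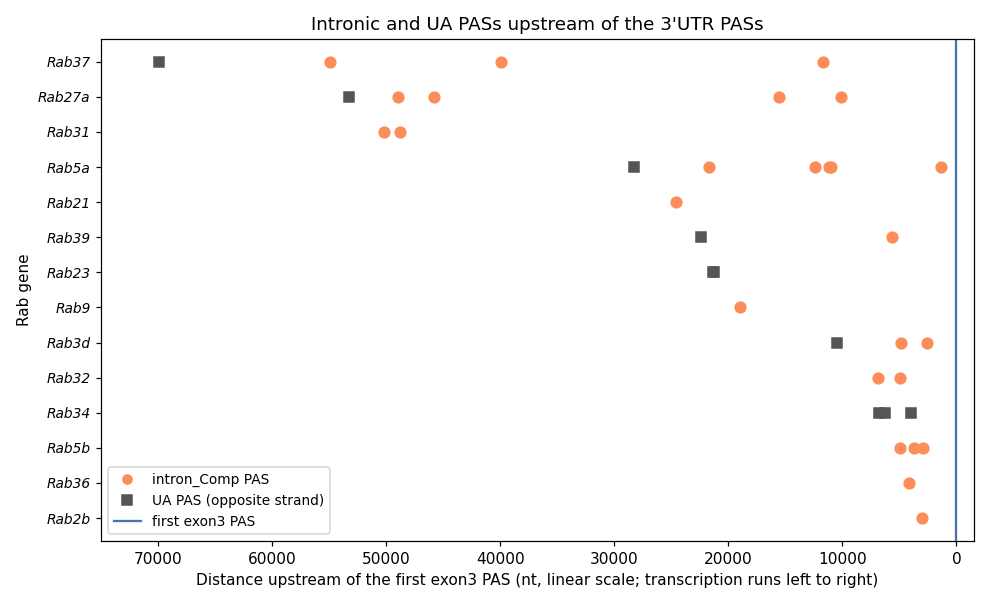
Distance in nt of each intron_Comp PAS (orange circles) and UA PAS (grey squares) upstream of the first exon3 PAS (blue line at 0), for the 14 *Rab* genes that have an exon3 PAS and at least 1 PAS of either kind. The intronic PASs lie between 1309 nt in *Rab5a* and 54977 nt in *Rab37*, and the UA PASs come before any intronic PAS of their gene.

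Upstream antisense transcripts start near a promoter and run away from the gene. UA PASs were listed for 8 *Rab* genes (14.3%, against 13.8% of all genes). All 11 UA PASs were on the strand opposite to the gene, while all 160 other *Rab* entries were on the strand of the gene. In all 8 genes the UA PASs came before every other PAS in the order of transcription. Both the strand and the order are part of what the label UA is taken to mean. *Rab34* had 3 UA PASs within 2821 nt, *Rab23* had 2 that lay 56 nt apart, and *Rab20*, *Rab27a*, *Rab37*, *Rab39*, *Rab3d* and *Rab5a* had 1 each. Of the 8 genes, 6 also had an intronic PAS, and *Rab23* and *Rab34* had none. Over the whole list, 1156 of the 2302 genes with a UA PAS had an intronic PAS. Sites of both kinds were found by the same procedure in the same libraries, and the share was not tested.

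At most of these sites no PAS of another gene was near. The intronic PASs of the *Rab* genes lay at least 3722 nt from the nearest listed PAS of another gene, with a median of 23880 nt. Within 1000 nt, 1 of the 11 UA and 1 of the 12 exon3ext PASs had a PAS of another gene. The UA PAS of *Rab27a*, at 72890196 on the minus strand of chromosome 9, was 227 nt from a UA PAS of *Pigb* at 72890423 on the plus strand, the nearest of 5 *Pigb* UA PASs between the sites of *Rab27a*. The exon3ext PAS of *Rab34*, at 78006282 on the plus strand of chromosome 11, was 2 nt from a UA PAS of *Proca1* at 78006284 on the minus strand. Another UA PAS of *Proca1*, at 78003393 on the minus strand, lay between the outermost sites of *Rab34*, 1694 nt from the nearest UA PAS of *Rab34*, at 78001699 on the same strand. Of the 33 *Rab* genes with 2 or more PASs, 2 had a PAS of another gene between their outermost sites, *Rab27a* and *Rab34*.

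The partners of the Rab proteins, which load, unload or bind them, were taken from a list of 24 genes. All 24 were in the PAS list, with 72 entries and a median of 2 PASs per gene. Of the 21 with an exon3 PAS, 10 (47.6%, against 49.5% over the whole list) had 2 or more, with a median span of 1128 nt. Intronic PASs were listed for 2 of the 24 genes (8.3%, against 33.5% of all genes), *Rims1* and *Rab11fip4*. This difference was not tested. *Rims1*, which encodes the Rab3 effector RIM1 of the active zone, had 16 PASs, of which 15 were intronic and 1 was UA. *Rph3a*, which encodes the Rab3 effector rabphilin, had a single exon3 PAS. *Rab11fip1*, which encodes an effector of Rab11, had 10 exon3 PASs over 4272 nt.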

How the data were processed

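RNA of hippocampal mini-slices was subjected to 3′READS+ by the authors, who mapped reads with bowtie 2 (mm9 in the submitters' processing notes; tool version not given in the sources used here), identified PASs from reads with unaligned Ts and clustered PASs within 24 nt. The deposited table gives 1 list of PASs for all libraries and 12 columns of read counts. The authors' counts were not used, because the column names match no sample label. The planned comparisons of LTP and control slices were not run.

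Members were selected by gene symbol. Sites per gene, region labels, spans and distances were counted in Python (version 3.11.15) using pandas (2.3.3), numpy (2.4.6) and, for intervals, scipy (1.17.1). Figures were made in matplotlib (3.10.9). Intronic sites are those whose label starts with intron. The counting was tested on simulated data. Gene lengths are from RefSeq GRCm38.p6 and 3′UTR lengths from GENCODE M21. No coordinate was converted.

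The members, roles and partner genes were chosen with earlier results of these data known. Genes named singly were those with intronic, exon3ext or UA sites (20 genes), those with the 5 widest exon3 spans and those of the fixed role lists, and other members were added to account for all 56. Partner genes described singly were chosen after their values were seen. Another gene of the partner list is not reported here.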

Additional observations from a re-analysis of the deposited data

How the results depend on the processing

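The alternatives planned for the comparisons of LTP and control slices (DESeq2, no filter on low counts, each replicate left out, the animal as a block) were not run, since they need reads assigned to samples. No paired analysis was possible because no read column could be tied to an animal by its name. For the list of *Rab* PASs, 3 alternatives were applied to 6 values: leaving out UA sites, adding exon3ext sites to the 3′UTR sites and leaving out sites listed under several genes. The share of 3′UTR sites moved from 67.8% (95% Wilson interval for counting error only, 60.5% to 74.4%) to 74.9% when exon3ext sites were added, a setting that can only raise it. The same setting gave a median span of 1526 nt in place of 1173 nt. The interval treats entries as independent, although many come from the same gene. It does not measure the effect of a change of definition. Without UA sites, the 3′UTR share was 72.5% and the intronic share 20.0%. This setting lowers only the total number of entries and so can only raise both shares. No *Rab* site is listed under several genes, so leaving out such sites removed 0 entries and tests nothing. Reads per site were not computed, and sites with few reads were not set apart.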
